A study of Mus musculus with 63 samples.

Results

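The endothelial cells (ECs) of healthy mouse kidneys were set against the other sorted kidney cells by small RNA sequencing. The members were chosen by sample label: the 4 sham EC libraries on one side and the 12 sham libraries of the other sorted populations on the other, 16 of the 63 libraries of the series. Every miRNA locus of the deposited count table was considered, and 478 of 2110 loci had enough counts in the sham libraries to be tested. The study followed the mouse kidney through obstruction of a ureter (unilateral ureteric obstruction, UUO) and its reversal (R-UUO), with 4 mice per condition. The adult male C57BL/6 mice used here had the sham operation, and the labels name no transgene or drug. Cortical kidney tissue was digested and sorted by flow cytometry into ECs (CD31+ and CD45-), F4/80-high macrophages (Macs, CD45+), proximal tubular cells (PT cells, binding Lotus lectin, LTL) and PDGFR-β+ cells, a stromal population of pericytes and fibroblasts. The last pair of gates was negative for both CD45 and CD31, and libraries of the 4 populations that share a number from 1 to 4 in their titles were taken as those of 1 mouse. The question put to the sham libraries was which miRNAs set healthy kidney endothelium apart. A sort by CD31 takes arterial, capillary, venous and glomerular endothelium together, so the values are means over all kidney endothelium.

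MicroRNAs are cut from hairpin precursors, and each arm of the hairpin (5p or 3p) can give a mature miRNA that pairs with target messenger RNAs mainly through its seed, bases 2 to 8. Many miRNA genes lie in introns of protein-coding genes or in clusters cut from a shared transcript, so that neighbours often rise and fall together. In endothelium the best known is miR-126a, which lies inside Egfl7, a gene of endothelial cells, and keeps vessels sensitive to vascular endothelial growth factor by lowering inhibitors of its signalling.

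The sequences below are those of the miRNAs the comparison turned on: the marker arm miR-126a-3p, 5 others that stood above every non-endothelial library, the abundant pairs miR-10a/10b and miR-27b/27a that share a seed, the locus furthest below every other library in ECs, and the markers miR-142a-5p of Macs and miR-192-5p of PT cells. They are RefSeq mature sequences on GRCm38.p6, written 5′ to 3′ with the seed in capitals. The counts of miR-3071-5p cannot be told apart from those of miR-136-3p on the opposite strand.
miR-126a-3p (chr2:26591402-26591423, + strand): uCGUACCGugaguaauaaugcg
miR-139-5p (chr7:101475382-101475403, + strand): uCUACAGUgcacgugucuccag
miR-335-5p (chr6:30741314-30741336, + strand): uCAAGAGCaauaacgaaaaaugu
miR-127-3p (chr12:109592888-109592909, + strand): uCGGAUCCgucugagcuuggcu
miR-3071-5p (chr12:109595363-109595384, - strand): aCUCAUUUgagacgaugaugga
miR-204-5p (chr19:22750610-22750631, + strand): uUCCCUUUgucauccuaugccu
miR-10a-5p (chr11:96317186-96317208, + strand): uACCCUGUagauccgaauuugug
miR-10b-5p (chr2:74726074-74726096, + strand): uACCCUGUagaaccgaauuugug
miR-27b-3p (chr13:63300760-63300780, + strand): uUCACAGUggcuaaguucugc
miR-27a-3p (chr8:84208727-84208747, + strand): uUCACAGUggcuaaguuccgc
miR-455-5p (chr4:63256867-63256888, + strand): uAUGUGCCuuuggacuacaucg
miR-142a-5p (chr11:87756867-87756887, + strand): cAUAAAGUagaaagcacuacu
miR-192-5p (chr19:6264857-6264877, + strand): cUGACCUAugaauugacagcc

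The EC libraries held 7395011 to 10819385 miRNA counts, Macs 2105184 to 6095639, PT cells 622689 to 987306 and PDGFR-β+ cells 2732682 to 7932031. Levels are given as CPM, the counts of a locus relative to the library size after scaling by the trimmed mean of M-values (TMM), whose factors were 0.582 to 0.684 in ECs and 1.57 to 1.67 in Macs. A CPM is therefore a relative level and not a share of the library, and a level of 3 counts stood for 0.298 to 3.46 CPM, highest in the shallow PT libraries. Loci with a count numbered 745 to 760 in ECs and 466 to 760 in the other libraries. In every population any pair of libraries differed by more than sampling noise (chi-square per degree of freedom 8.96 to 232), and none was a repeat of another. The Mac library of mouse 4 stood apart from the other Mac libraries in miRNAs of 2 other populations: 2591 CPM of miR-126a-5p against 239 to 1186, and 4621 CPM of miR-192-5p, a tubule marker, against 3239 to 3264. Fewer cells of a type and less RNA per cell cannot be told apart in such sorted bulk libraries.

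ECs differed from the remaining cells at 221 of 478 loci (46.2%). Differences were fitted with edgeR with the mouse as a block, and a call required an adjusted p below 0.05 and a fold change of at least 1.5. Errors given with log2 differences are standard errors. Against the mean of the other 3 populations, 145 of 478 loci (30.3%) were higher in ECs and 76 (15.9%) were lower, and the median log2 difference of all loci was 0.033. In 71 of the 145 (14.9% of the loci tested) all 4 EC libraries lay above all 12 others, whereas 6 of the 76 lower loci (1.26%) had all 4 EC libraries below the others. With scaling by total counts alone these were 56 higher and 26 lower. Of the 71, 25 belonged to the imprinted Dlk1-Dio3 region of chromosome 12, 9 of which passed the count filter without the EC libraries. The remaining 46 included miR-126a, miR-139, miR-335 and miR-150. Host genes were annotated for 39 of the 71 loci and for 332 of all 478.
Of the 478 loci, 48 passed the count filter only with the EC libraries included, and 31 of these were called higher, which the filter itself favours. Not all of the 48 rest on EC counts: miR-199b-5p was 1 of them, with 0 to 4 counts in an EC library and 14 to 73 in PDGFR-β+ libraries. Among the 430 loci that passed without the EC libraries, 114 were higher and 76 lower, and 47 lay above the other 12 libraries in ECs. The balance of calls depends on the scaling: 65.6% of calls were higher in ECs with TMM, but 33.2% when libraries were scaled by total counts alone, which moved the median of all loci by -0.83. After thinning every library to the smallest one the share was 53.6%, and with no count filter it was 74.7%. The plot of difference against level shows both wings of the distribution.

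**Figure D1:**
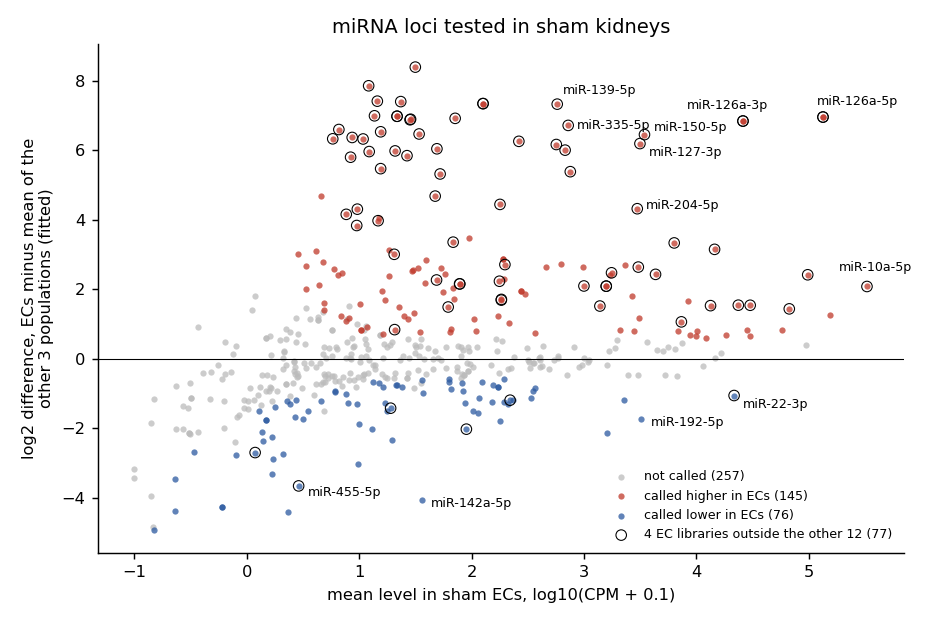
Each point is 1 of the 478 miRNA loci tested: the x axis gives its mean level in the 4 sham EC libraries as log10(CPM + 0.1), and the y axis its fitted log2 difference, ECs minus the mean of the other 3 populations. Red points (145) were called higher in ECs, blue points (76) lower, and black rings mark the 77 called loci whose 4 EC libraries lay outside the range of the other 12.

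The marker miR-126a was both abundant in ECs and scarce elsewhere. miR-126a-5p (chr2:26591365-26591385, + strand) and miR-126a-3p lie within Egfl7, in sequence annotated as exonic. In mice 1 to 4, miR-126a-5p stood at 129305, 137981, 145791 and 122136 CPM in ECs. It stood at 2022, 1774, 1769 and 2106 CPM in PDGFR-β+ cells, 965, 239, 1186 and 2591 CPM in Macs and 614, 727, 535 and 489 CPM in PT cells. Every EC library lay far above every other library, and the highest of the others was the Mac library of mouse 4. The log2 difference from the mean of the others was 6.95 ± 0.33 (SE), with an edgeR adjusted p = 1.15e-10. It was 6.91 ± 0.53 against Macs, 7.81 ± 0.55 against PT cells and 6.15 ± 0.51 against PDGFR-β+ cells, and these contrasts share the EC libraries.
miR-126a-3p, the arm that lowers Spred1, followed with 23632 to 30848 CPM in ECs and 66.9 to 482 CPM elsewhere, a log2 difference of 6.84 ± 0.29 (edgeR adjusted p = 5.04e-11). Together the arms made up 10.3% ± 0.476 (SD, n = 4) of the EC counts and 0.0511 to 0.483% of the counts of the other libraries. The 5p arm outnumbered the 3p arm 5.18 ± 0.361 times in ECs (SD, n = 4), and 4.91 ± 0.992 times in Macs. The miR-126b locus on the opposite strand shares these bases: miR-126a-3p and miR-126b-5p have a complementary run of 19 bases and had the same count in 9 of 16 libraries, with a largest difference of 132 counts. Reads of this pair of loci cannot be told apart in the table. The library totals count both loci, and miR-126b-3p took 8.64% and miR-126b-5p 1.67% of the EC counts, which lowers the EC share given above. In Macs, PT cells and PDGFR-β+ cells miR-126b-3p took 0.200%, 0.0829% and 0.131%. The miR-126b loci are not described further.

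Beyond miR-126a, the miRNAs furthest above the other cells outside chromosome 12, among those with a mean count of at least 50 and no overlap of libraries, were miR-139, miR-335 and miR-150. miR-139-5p, from an intron of Pde2a (a phosphodiesterase that breaks down cyclic nucleotides), reached 569, 583, 539 and 619 CPM in ECs. It reached 6.83, 2.70, 0 and 1.92 CPM in PDGFR-β+ cells, 6.17, 4.84, 2.51 and 12.8 CPM in Macs and 2.79, 1.15, 3.79 and 1.86 CPM in PT cells. The EC libraries were close to each other and no other library exceeded 12.8 CPM, so the groups were far apart (log2 difference 7.32 ± 0.33, edgeR adjusted p = 7.09e-11). Its other arm, miR-139-3p, stood at 24.7 to 37.9 CPM in ECs and at no more than 0.369 CPM in any other library. All 4 PT libraries were at 0 for miR-139-3p, which makes ECs at least 45.3-fold higher, taking 3 counts over the summed PT libraries as the floor.
miR-335 lies in an intron of Mest, an imprinted gene expressed from the paternal copy. miR-335-5p stood at 858, 839, 654 and 542 CPM in ECs of mice 1 to 4 and at 1.52 to 17.5 CPM in the other 12 libraries. The lowest EC library was thus well above the highest other library (log2 difference 6.71 ± 0.22, edgeR adjusted p = 6.02e-12). miR-335-3p differed by 6.26 ± 0.45 on the same scale.
miR-150-5p (chr7:45121762-45121783, + strand), best known from mature lymphocytes, where it lowers Myb, stood at 3823, 3003, 3698 and 3286 CPM in ECs. Macs held 151, 87.9, 103 and 134 CPM, PT cells 25.1, 31.1, 20.5 and 29.8 CPM and PDGFR-β+ cells 28.8, 12.01, 18.0 and 24.0 CPM. ECs were higher than every other library, and Macs, the CD45+ population, were second (log2 difference 6.45 ± 0.14 from the mean, 4.89 ± 0.20 from Macs, edgeR adjusted p = 2.65e-14 and 1.7e-11). Among other leukocyte miRNAs, miR-142a-5p stood at 19.3 to 57.5 CPM in ECs and 29849 to 35868 CPM in Macs, and miR-223-3p averaged 2.20 ± 1.24 CPM in ECs and 1939 ± 91.0 CPM in Macs (mean ± SD, n = 4).
miR-1941-5p was low, at 15.4 to 26.3 CPM in ECs and at most 0.932 CPM in any other library. It was among the 3 loci with the largest difference of ECs from PDGFR-β+ cells, which had no count of it in any library.
miR-204-5p, in an intron of Trpm3 and placed among the tubule markers here, was also highest in ECs. It stood at 3754, 3539.9, 2446 and 2172 CPM in ECs against 24.8 to 49.5 CPM in Macs and 91.3 to 143 CPM in PT cells. PDGFR-β+ cells were next, with 1499, 666, 507 and 708 CPM. The PDGFR-β+ library of mouse 1 lay nearest to the ECs but still below them (log2 difference 4.32 ± 0.18 from the mean, 1.90 ± 0.24 from PDGFR-β+ cells, edgeR adjusted p = 2.8e-11 and 1.22e-05).

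**Figure D2:**
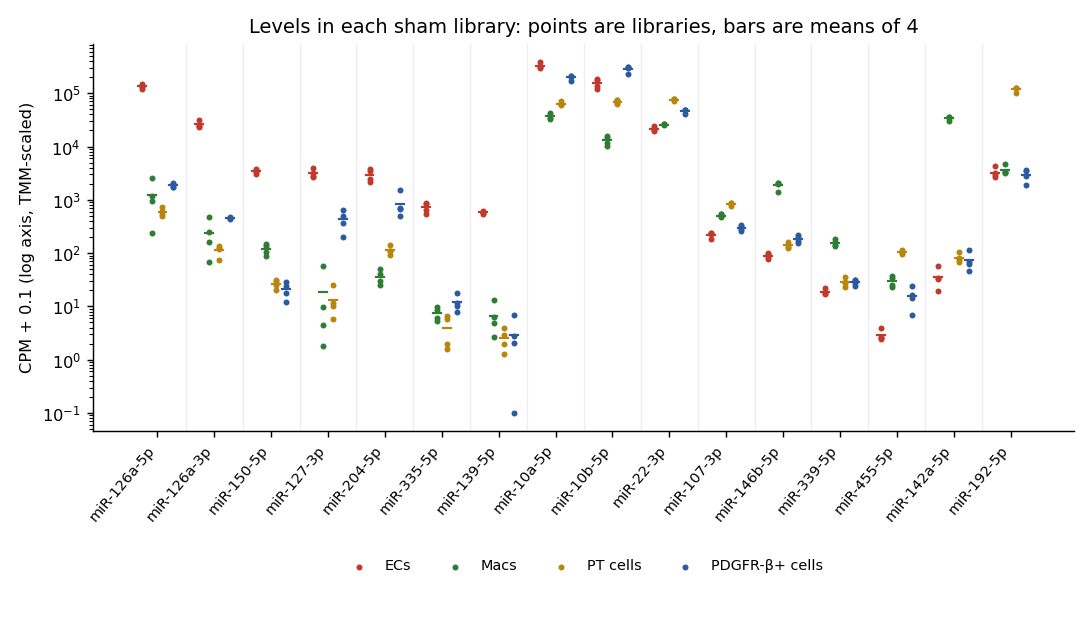
Levels of 16 miRNA loci in each of the 16 sham libraries, as CPM + 0.1 on a log axis; points are libraries and bars are means of 4, coloured by population (ECs red, Macs green, PT cells ochre, PDGFR-β+ cells blue). The first 7 loci stand highest in ECs, miR-10a-5p stands highest in ECs and miR-10b-5p in PDGFR-β+ cells, and the last 7 show ECs lowest or below 1 other population.

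Many of the loci higher in ECs lay in the imprinted Dlk1-Dio3 region, a string of miRNA genes on chromosome 12 that are expressed from the maternal copy along with Meg3, Rian and Mirg. The list of the region used here held 114 loci of the table. It did not include miR-1247, further along chromosome 12 (5p arm at chr12:110278094-110278115), which was lower in ECs than in PT cells. Of the 114, 25 were tested, and of the 89 others 23 had no count in any sham library, 26 had counts in ECs only, 2 in other cells only and 38 in both, with at most 59 counts in a library. All 25 tested loci were called higher in ECs against the mean, against Macs and against PT cells, and 24 against PDGFR-β+ cells, where 30.3%, 38.1%, 34.7% and 27.2% of all loci were called higher. Because 16 of the 25 passed the filter only through ECs, the count over 25 is largely set by the filter. Against PDGFR-β+ cells the count varied with the setting: 21 of 25 with DESeq2, 22 of 25 with scaling by total counts alone, and 24 of 27, 19 of 28, 23 of 30 and 22 of 31 without mouse 1, 2, 3 and 4. The 9 that passed without the EC libraries were miR-673-5p, miR-127-3p, miR-434-3p, miR-3071-5p, miR-136-3p, miR-411-5p, miR-300-3p, miR-541-5p and miR-410-3p, and each was higher in ECs with no overlap of libraries. Of these, miR-3071-5p and miR-136-3p had identical counts in all 16 libraries and are 1 measurement. The fitted log2 differences of the 9 had a median of 6.19 from the mean, 7.31 from Macs, 7.55 from PT cells and 2.66 from PDGFR-β+ cells.
The 25 spanned 171781 bases (chr12:109572004-109743784), and their fitted log2 differences from the mean ran from 4.68 to 7.41 with a median of 6.33. In 18 of the 25 a whole population was at 0. With those set at their bound, the median was 5.32. Against PDGFR-β+ cells the differences were smaller, from 1.66 to 6.36 with a median of 3.03, beside 0.18 over all loci.
The most abundant was miR-127-3p, which lies antisense to the coding sequence of Rtl1, a placental gene that it can cleave. It stood at 2653, 3914, 2775 and 3239 CPM in ECs and 638, 370.5, 499 and 202 CPM in PDGFR-β+ cells. PT cells held 25.1, 11.5, 9.87 and 5.59 CPM and Macs 9.55, 1.71, 4.39 and 58.1 CPM. The order was thus ECs, then PDGFR-β+ cells, then the other cells, with no overlap between ECs and any other library (log2 difference 6.19 ± 0.51 from the mean and 2.84 ± 0.66 from PDGFR-β+ cells, edgeR adjusted p = 6.09e-08 and 0.0026).
At the far end of the region, miR-411-5p stood at 589.9 to 833 CPM in ECs and 85.5 to 230.0 CPM in PDGFR-β+ cells, miR-541-5p at 461 to 715 and 19.2 to 87.0 CPM. miR-434-3p, which like miR-127 lies opposite Rtl1, stood at 516 to 803 CPM in ECs and 22.1 to 100.4 CPM in PDGFR-β+ cells. miR-3071-5p stood at 99.5, 141, 138 and 127 CPM in ECs and was at 0 in every PT library, which puts ECs at least 183-fold higher. miR-3071-5p and miR-136-3p lie on opposite strands with a complementary run of 19 bases and had identical counts in all 16 libraries, so that they form 1 measurement. In all, 6 of the 25 loci had such an overlap partner.
Summed over all 114 loci, the region stood at 4923 to 7225 CPM in ECs, 400.5 to 1287 in PDGFR-β+ cells, 17.7 to 53.9 in PT cells and 6.83 to 129 in Macs. The highest Mac value came from mouse 4, where the region took 0.0202% of the counts against 0.00114 to 0.00417% in the other Mac libraries. That library also had the highest miR-126a-5p of the non-endothelial libraries, and the part of carried-over EC RNA in this value was not tested. With mouse 4 left out, 9 loci of the region passed the filter without the EC libraries, and 9 were higher in ECs than the mean and than Macs and 7 higher than PDGFR-β+ cells, the exceptions being miR-3071-3p and miR-136-5p. With scaling by total counts alone the 9 loci of the full set were higher against the mean and against each population, with a median of 5.34 from the mean. The plot of the region shows the 4 levels locus by locus.

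**Figure D3:**
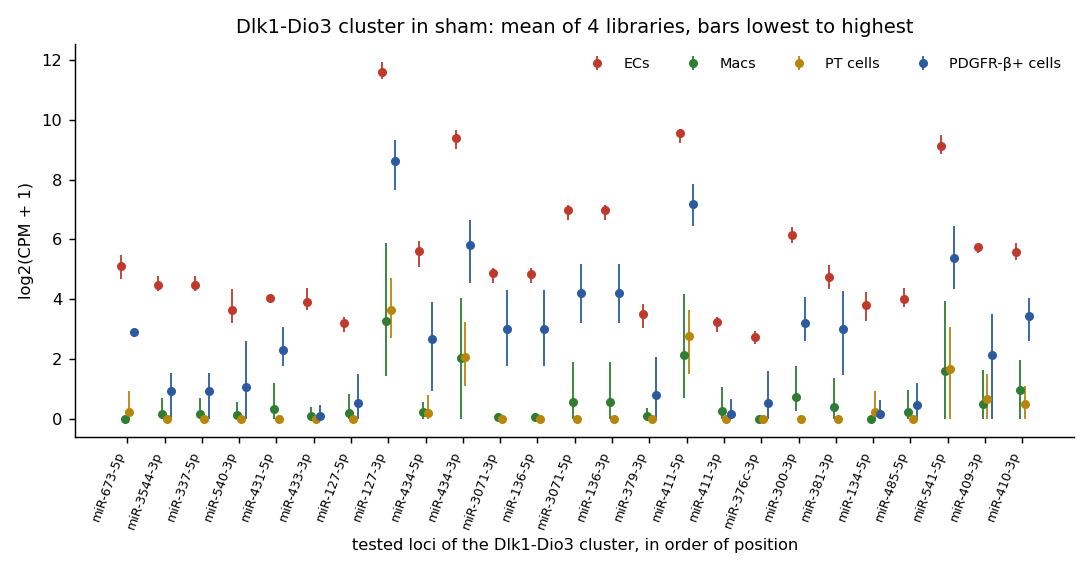
Levels of the 25 tested Dlk1-Dio3 loci in order of position, as log2(CPM + 1); points are means of 4 sham libraries of each population and bars run from the lowest to the highest library. ECs (red) lie above PDGFR-β+ cells (blue) at all 25 loci, and Macs and PT cells are near 0 at most of them.

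Levels in ECs were concentrated in few miRNAs. The 10 most abundant miRNAs of ECs, counting opposite-strand pairs once, took 65.8% ± 1.25 of the EC counts (SD, n = 4), and the same miRNAs took 52.5% of the counts in PDGFR-β+ cells, 39.5% in PT cells and 35.4% in Macs. The library totals still held both loci of each pair, which lowers the shares in ECs most, through miR-126a and miR-126b. miR-10a-5p, from the Hoxb cluster and described as a brake on inflammatory signalling in endothelium, was the most abundant of all, with 21.2% of the EC counts. It stood at 295384, 309049, 392921 and 320952 CPM in ECs and 172739 to 213039 CPM in PDGFR-β+ cells. PT cells held 59391 to 70499 CPM and Macs 33464 to 41978 CPM, so that the EC libraries lay above all others (log2 difference 2.08 ± 0.077, edgeR adjusted p = 1.45e-11).
Its sister miR-10b-5p, from the Hoxd cluster, differs from it by U12A (positions counted from 1 at the 5′ end of miR-10a-5p) and has the same seed. It stood at 117848 to 187309.7 CPM in ECs and 229679 to 313991 CPM in PDGFR-β+ cells. ECs thus exceeded Macs by 3.56 ± 0.17 and PT cells by 1.13 ± 0.16 on the log2 scale but lay below PDGFR-β+ cells (-0.93 ± 0.16, edgeR adjusted p = 0.000197), whereas miR-10a-5p exceeded PDGFR-β+ cells by 0.72 ± 0.10. Near-identical sequences can share reads that carry an error at the differing base, so small differences between the sisters are uncertain.
miR-27b-3p, which is described in angiogenic sprouting, stood at 93403 to 102442 CPM in ECs and 66021 to 79645 CPM in PDGFR-β+ cells. Its difference was 2.42 ± 0.091 from the mean of the others but only 0.40 ± 0.12 from PDGFR-β+ cells, which did not pass the fold threshold. miR-30a-5p stood at 61752 to 76647 CPM in ECs and 35734 to 40632 CPM in PT cells, the next highest population (0.80 ± 0.091 on the log2 scale), and no other library reached the ECs. In contrast, let-7f-5p from chromosome X took 6.11% of the EC counts and 12.4% of the Mac counts, with a log2 difference from the mean of 0.39 ± 0.084 that was not called. miR-26a-5p from chromosome 10, at 54049 to 65025 CPM in ECs, differed by 0.84 ± 0.07, and miR-181a-5p from chromosome 2, at 27053 to 32809 CPM, by 0.64 ± 0.069, but with scaling by total counts alone by -0.0021 and -0.20. Without mouse 1 or mouse 2 miR-181a-5p fell short of the fold threshold (0.52 and 0.56). let-7c-5p from chromosome 16, at 25202 to 33289.6 CPM, differed by 1.54 ± 0.068.

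A list of miRNAs with described roles in endothelium held 44 loci, of which 35 were tested. In ECs 22 were higher than the mean of the others, 1 was lower and 12 were not called, where 30.3% of all loci were higher and 15.9% lower. The median log2 difference was 1.49, beside 0.033 over all loci. With scaling by total counts alone 17 were higher and 8 lower, with a median of 0.65. Against PDGFR-β+ cells 14 of the 35 were higher and 6 lower, where 27.2% and 16.7% of all loci were. The median there was 0.45, beside 0.18 over all loci. The locus lower than the mean was miR-210-3p, a miRNA induced by hypoxia, at 7.91 ± 1.36 CPM in ECs and 47.3 ± 2.06 CPM in PDGFR-β+ cells (mean ± SD, n = 4). Besides miR-126a and miR-10, those higher than the mean were the miR-23, miR-27 and miR-24 loci, miR-132, miR-322 and miR-92a. miR-221-3p and miR-222-3p, which restrain endothelial migration through Kit, were not called and averaged 212 ± 29.3 and 705 ± 63.7 CPM in ECs against 594 ± 32.2 and 2398 ± 225 CPM in PT cells.
The miR-23, miR-27 and miR-24 loci lie in a pair of clusters on chromosomes 8 and 13. Of 12 loci 10 were tested, and all 10 were higher in ECs than the mean, where 30.3% of all loci were higher. Each passed the filter without the EC libraries, and the median was 2.32. With scaling by total counts alone 9 of the 10 were higher than the mean. Against PDGFR-β+ cells 6 of the 10 were higher and 4 were not called, where 27.2% of all loci were higher. The median was 0.63 against PDGFR-β+ cells, 1.68 against Macs and 3.69 against PT cells. miR-27a-3p stood at 4149, 4191, 4910.3 and 4073 CPM in ECs against 2477 to 3323 CPM in PDGFR-β+ cells, 1673 to 2155 CPM in Macs and 87.6 to 107 CPM in PT cells (log2 difference from the mean 2.43 ± 0.094). miR-23b-3p stood at 2877 to 3121 CPM in ECs and at most 1619.9 CPM elsewhere, with a difference of 2.64 ± 0.09. miR-23a-3p differed by 2.47 ± 0.13. In 7 of the 10 the EC libraries lay above all 12 others.

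Grouped by position on the chromosome, several clusters shared 1 direction. Loci on the same strand within 10000 bases formed 35 clusters with at least 3 tested loci, and in 10 of these every tested locus was higher in ECs, in 1 every locus was lower and in 2 both directions occurred. The 10 included the miR-23, miR-27 and miR-24 clusters and the Dlk1-Dio3 clusters on both strands of chromosome 12, all described above. Of the 25 Dlk1-Dio3 loci, 16 passed the count filter only through ECs. The clusters named here were chosen after their values were seen. On chromosome X, 10 of 10 tested loci of the cluster of miR-322, miR-503, miR-351, miR-542 and miR-450, a cluster known for its targets in the cell cycle, were higher than the mean, with a median log2 difference of 2.53. miR-322-5p stood at 2124, 1856, 2968 and 2268 CPM in ECs, 398 to 534 CPM in Macs, 21.9 to 41.9 CPM in PT cells and 1989 to 3641 CPM in PDGFR-β+ cells. ECs and PDGFR-β+ cells overlapped (log2 difference -0.26 ± 0.19, not called), and both lay above every Mac and PT library.
A like order was seen for miR-195a and miR-497a on chromosome 11, where 3 of 3 tested loci were higher than the mean. miR-195a-5p averaged 627 ± 46.2 CPM in ECs and 871 ± 166 CPM in PDGFR-β+ cells, against 34.7 ± 1.49 in Macs and 27.9 ± 9.34 in PT cells (SD, n = 4). The miR-132 and miR-212 cluster, induced by CREB and described in vessel growth, had 4 of 4 higher than the mean, with miR-132-3p at 68.3 ± 7.25 CPM in ECs and 133 ± 49.6 CPM in PDGFR-β+ cells (log2 difference -0.91 ± 0.35 between them). miR-181c and miR-181d on chromosome 8 had 3 of 3 higher. Unlike these, miR-151 in an intron of Ptk2 (focal adhesion kinase) was above every other library in both arms: miR-151-3p averaged 14515 ± 736 CPM in ECs and 5096 ± 717 CPM in PDGFR-β+ cells, a log2 difference of 3.15 ± 0.11 from the mean and 1.51 ± 0.15 from PDGFR-β+ cells. The single cluster with every tested locus lower in ECs, 5 of 5, was miR-200b, miR-200a and miR-429, which hold the epithelial state by lowering Zeb1 and Zeb2.

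The broadly expressed families differed less, and the direction of several medians depended on the scaling. The family counts below are against the mean, where 30.3% of all loci were higher and 15.9% lower. In the let-7 family, 10 of 23 tested loci were higher in ECs and none lower, with a median log2 difference of 0.44. With scaling by total counts alone 4 were higher and 4 lower, with a median of -0.39. Against PDGFR-β+ cells 3 of the 23 were higher and 1 lower, with a median of -0.020. let-7i-5p averaged 7498 ± 565 CPM in ECs (log2 difference from the mean 0.44 ± 0.09) and let-7b-5p 8379.8 ± 1422 CPM (1.67 ± 0.074). In the miR-30 family, 6 of 12 were higher and none lower, with a median of 0.57, but 3 were higher and 5 lower by total counts alone (median -0.28). Its miR-30e-5p differed by -0.49 ± 0.10 and miR-30d-5p by 0.03 ± 0.074. In the miR-181 family, 5 of 10 were higher and none lower (median 0.60), or 3 higher and 2 lower by total counts alone (median -0.23), with miR-181b-5p from chromosome 2 at -0.19 ± 0.078.
The miR-99, miR-100 and miR-125 family had 4 of 11 higher and none lower (median -0.027), but 3 higher and 6 lower by total counts alone (median -0.87). miR-99b-5p and miR-125a-5p, from 1 cluster on chromosome 17, averaged 7354 ± 738 and 23610.0 ± 166 CPM in ECs and differed by 1.06 ± 0.072 and 1.54 ± 0.072, whereas miR-125b-5p from chromosome 9 differed by -0.027 ± 0.13 and miR-99a-5p by -0.26 ± 0.16, neither called. In the miR-15 and miR-16 family 5 of 13 were higher and 2 lower (5 and 6 by total counts alone), the higher ones being miR-322, miR-195a and miR-497a, and miR-15a-5p was lower, at -0.83 ± 0.12 on the log2 scale.
The miR-17/92 cluster and its paralogs, which promote cell division, had 2 of 19 tested loci higher and 2 lower (median -0.30), but 1 higher and 10 lower by total counts alone (median -1.14). Within the chromosome 14 cluster miR-92a-3p, an inhibitor of vessel growth, differed by 0.59 ± 0.066 from the mean (-0.25 by total counts), while miR-19b-3p of the same transcript stood at 0.53 ± 0.20 and was not called. Without mouse 1, 2 or 4 the difference of miR-92a-3p fell short of the fold threshold (0.48, 0.48 and 0.55). miR-93-5p from chromosome 5 was lower, at -0.93 ± 0.10, and miR-25-3p, its neighbour, differed by 0.55 ± 0.09. In the miR-29 family, which lowers collagens, 1 of 7 was higher (miR-29a-3p, 0.80 ± 0.078, or -0.046 by total counts) and the 2 copies of miR-29b-3p were lower (-0.75 ± 0.20 for the copy on chromosome 1). By total counts alone none of the 7 was higher and 4 were lower.
The Hox cluster miRNAs split by gene: the 4 miR-10 loci were higher, 5 loci of miR-196a and miR-615 were lower and 3 were not called (median 0.62). Over the 11 that passed the filter without the EC libraries the median was 0.054, beside 0.033 over all loci. By total counts alone 2 of the 12 tested loci were higher and 6 lower (median -0.19). miR-196a-5p from chromosome 15 stood at 153 to 201 CPM in ECs, 1369 to 1869.9 CPM in PT cells and 1867 to 2487 CPM in PDGFR-β+ cells (log2 difference -1.79 ± 0.13). Finally, none of 6 tested loci in the intron of Clcn5 was higher and 4 were lower (median -0.89), or 6 by total counts alone, and miR-532-5p, the most abundant, stood at 171 to 207 CPM in ECs and 1301 to 1599 CPM in Macs, the highest population. The bar plot of the lists sets these shares beside those of all loci.

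**Figure D4:**
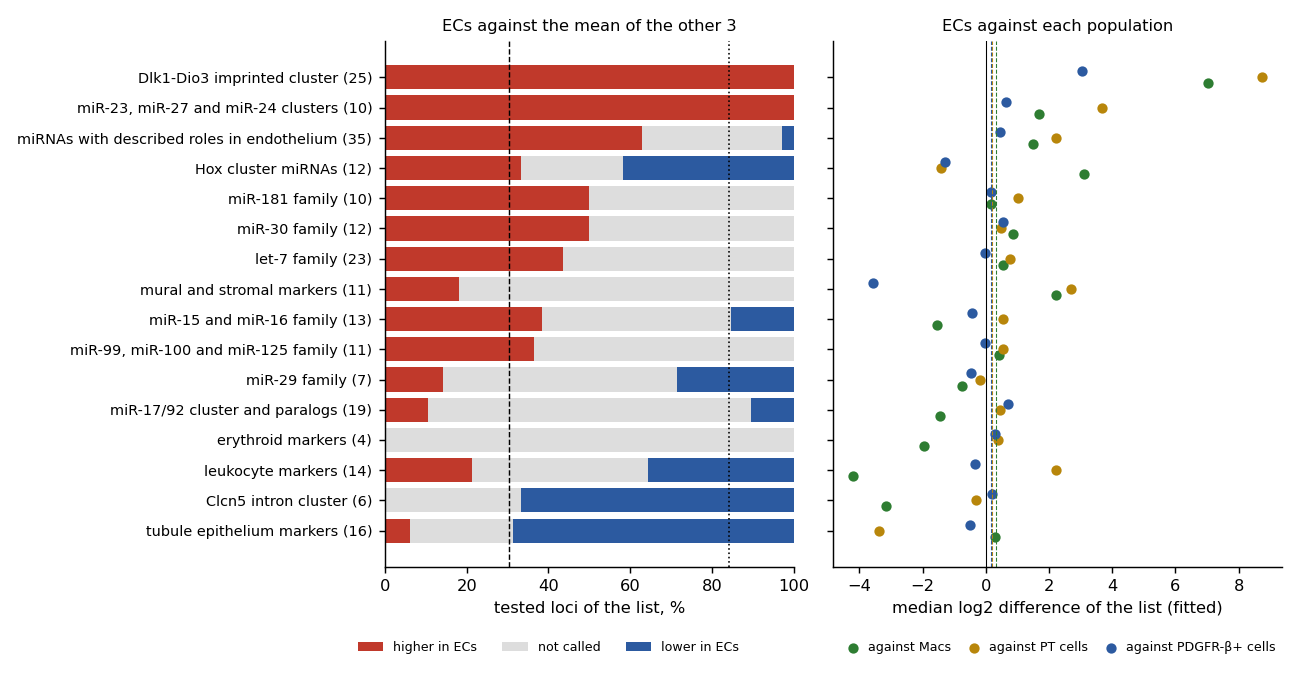
Left, share in percent of the tested loci of each list (number tested in brackets) that were higher in ECs (red), not called (grey) or lower (blue) against the mean of the other 3 populations; the dashed and dotted lines mark the 30.3% higher and 15.9% lower of all 478 loci. Right, median fitted log2 difference of each list against Macs (green), PT cells (ochre) and PDGFR-β+ cells (blue), with dashed lines for the median of all loci. Of the 25 Dlk1-Dio3 loci 16 passed the count filter only through ECs.

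With TMM scaling 6 loci were lowest in ECs, and 26 were with scaling by total counts alone. Of the 6 loci below every other library, 5 had a mean count of at least 50: miR-455-5p, miR-146b-5p, miR-339-5p, miR-107-3p and miR-22-3p. The other was miR-188-5p of the Clcn5 intron, at 1.08 ± 0.828 CPM in ECs (SD, n = 4), and it was named after its values were seen. miR-455-5p, from an intron of Col27a1 (a fibrillar collagen of cartilage), stood at 2.52, 2.44, 3.82 and 2.37 CPM in ECs. It stood at 16.4, 14.4, 6.92 and 23.5 CPM in PDGFR-β+ cells, 34.6, 23.3, 25.5 and 36.8 CPM in Macs and 114, 96.8, 105 and 105 CPM in PT cells. ECs were lowest and PT cells highest, with a log2 difference from the mean of -3.65 ± 0.29 (edgeR adjusted p = 3.7e-08).
miR-146b-5p and miR-146a-5p share a seed and restrain NF-κB signalling, but they differed in ECs. miR-146b-5p stood at 95.9, 77.5, 101 and 84.8 CPM in ECs, below 123 to 164 CPM in PT cells, 157 to 216 CPM in PDGFR-β+ cells and 1394 to 2066 CPM in Macs (log2 difference -2.02 ± 0.15, edgeR adjusted p = 1.82e-08). miR-146a-5p stood at 2809, 3137, 3382 and 3066 CPM in ECs, between 42241 to 49069 CPM in Macs and the other cells, so that it was -3.91 ± 0.15 from Macs, 3.84 ± 0.16 from PT cells and 3.56 ± 0.15 from PDGFR-β+ cells on the log2 scale.
miR-22-3p was the only abundant miRNA among the 5: 22336, 19872, 24179 and 20248 CPM in ECs against 24851 to 26265 CPM in Macs, 40728 to 48810.0 CPM in PDGFR-β+ cells and 71641 to 77950.1 CPM in PT cells. Its log2 difference from the mean was -1.05 ± 0.08, and the step to Macs (-0.26 ± 0.092) did not pass the fold threshold. miR-107-3p, in an intron of Pank1 (an enzyme of coenzyme A synthesis), stood at 181 to 237 CPM in ECs and differed by -1.19 ± 0.11 from the mean, with no call against PDGFR-β+ cells (-0.44 ± 0.13). miR-339-5p stood at 17.1 to 22.1 CPM in ECs and differed by -1.42 ± 0.16.

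Against Macs, 182 loci (38.1%) were higher in ECs and 121 (25.3%) lower, with a median over all loci of 0.32. These were 63.4% of the loci, and in 170 of the higher (35.6%) and 113 of the lower (23.6%) the libraries did not overlap. Scaling by total counts alone turned this balance to 110 higher and 233 lower. Apart from the Dlk1-Dio3 loci, which included the 3 largest differences above Macs (miR-673-5p, miR-3071-3p and miR-127-3p), the difference was marked by miRNAs of the blood lineage that were nearly lacking in ECs. miR-142a-5p, made in haematopoietic cells, stood at 19.3, 34.4, 32.4 and 57.5 CPM in ECs and 35819.9, 35868, 29849 and 33710.2 CPM in Macs, a log2 difference of -9.93 ± 0.40 with no overlap (edgeR adjusted p = 1.64e-11). The 3 loci furthest below Macs were miR-223-5p, miR-142a-3p and miR-5107-3p. miR-142a-3p stood at 0 to 1.19 CPM in ECs and 581 to 814 CPM in Macs. miR-223, a miRNA of myeloid cells, gave at most 0.198 CPM of miR-223-5p in an EC library, against 89.4 to 106 CPM in Macs.
Of 16 leukocyte marker loci 14 were tested, and against the mean of the others 3 were higher (miR-146a-5p and both arms of miR-150), 5 lower and 6 not called, or 2 higher and 6 lower by total counts alone. Of all loci 30.3% were higher than the mean and 15.9% lower. The fitted median of the list was -0.82, or -1.95 with the 4 loci that had a population at 0 set at their bound. Of the 14 loci, 13 passed the filter without the EC libraries, and of these 2 were higher and 5 lower, with a median of -1.67. The other locus was miR-150-3p. Summed, the list stood at 6388 to 7351 CPM in ECs and 82831 to 90869.9 CPM in Macs.

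Against PT cells, 166 loci (34.7%) were higher in ECs and 128 (26.8%) lower, with a median over all loci of 0.19. These were 61.5% of the loci, and the libraries did not overlap in 163 of the higher (34.1%) and 122 of the lower (25.5%). The lower count rose to 233 with scaling by total counts alone. miR-192-5p, which with miR-194 is a miRNA of the proximal tubule, stood at 2663, 2899, 4237 and 3187 CPM in ECs and 100588, 126550.4, 124349 and 126820.0 CPM in PT cells. ECs were far below PT cells (-5.22 ± 0.17, edgeR adjusted p = 3.57e-12) but near Macs (3239 to 4621 CPM) and PDGFR-β+ cells (1924 to 3644 CPM). miR-1247-5p and miR-455-3p were further below PT cells, by -6.29 ± 0.65 and -5.77 ± 0.58. At the other end, miR-3071-5p, miR-300-3p and miR-139-3p had the largest differences above PT cells, and each was at 0 in all PT libraries, with ECs at least 104-fold higher for miR-300-3p.
Of 22 tubule marker loci 16 were tested: 11 were lower in ECs than the mean, 1 was higher (miR-204-5p) and 4 were not called, with a median of -1.28. By total counts alone 13 were lower and 1 higher. Of all loci 15.9% were lower than the mean and 30.3% higher with TMM. The epithelial miR-200b-3p stood at 299 to 416 CPM in ECs and 3008 to 3596 CPM in PT cells, and miR-429-3p at 178 to 312 and 1702 to 2109 CPM. Summed, the list stood at 6292 to 7994 CPM in ECs and 109653 to 136099.9 CPM in PT cells.

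By number of calls, PDGFR-β+ cells were nearest to ECs: 130 loci (27.2%) were higher in ECs and 80 (16.7%) lower, 210 in all (43.9%) against 303 for Macs and 294 for PT cells. Without overlap of libraries these were 121 (25.3%) and 69 (14.4%). The median over all loci was 0.18. miR-143 and miR-145a, which hold smooth muscle and pericytes in their contractile state, were, with miR-3102-3p, the loci furthest below PDGFR-β+ cells in ECs among those with a mean count of at least 50 and no overlap. miR-143-3p stood at 24919, 14188, 16404 and 11263 CPM in ECs and 354616, 426187, 313933 and 417417 CPM in PDGFR-β+ cells, with no overlap (-4.59 ± 0.28, edgeR adjusted p = 5.68e-09). The lowest EC library was that of mouse 4. miR-145a-3p differed by -4.63 ± 0.33 and miR-3102-3p by -4.60 ± 0.55. On the other side, miR-139-5p, miR-139-3p and miR-1941-5p were furthest above PDGFR-β+ cells, with 7.53 ± 0.52 for miR-139-5p.
Of 12 mural and stromal marker loci 11 were tested, and all 11 were lower in ECs than in PDGFR-β+ cells, where 16.7% of all loci were lower, with a median of -3.58. Against the mean of the 3 populations 2 were higher, none lower and 9 not called (median 0.36, or 0.30 at bound), and by total counts alone none was higher and 4 lower (median -0.47). miR-199a-3p from chromosome 1 stood at 357 to 577 CPM in ECs, 3289.8 to 4033 CPM in PDGFR-β+ cells, 68.6 to 101 CPM in Macs and 94.1 to 118 CPM in PT cells. Summed, the list stood at 11919 to 25685 CPM in ECs, 321955 to 435841 CPM in PDGFR-β+ cells, 1921 to 4621 CPM in Macs and 1638 to 3652 CPM in PT cells, so that ECs were second. Of 7 erythroid marker loci 4 were tested and none was called against the mean, but all 4 were lower by total counts alone (median -1.25), and the list summed to 316 to 432 CPM in ECs and 1014 to 1954 CPM in Macs. The 4 were the arms of miR-486a and miR-486b. The counts of each miR-486b arm were those of the opposite miR-486a arm or nearly so, so the 4 are not separate measurements and the sum repeats their reads.

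The choice between the arms of a hairpin was compared where the arms together had at least 20 counts in every sham library, as the log2 ratio of 5p to 3p counts with 2 added to each. Of 77 hairpins, 4 (5.19%) were shifted toward 5p in ECs and 6 (7.79%) toward 3p, tested with limma with the mouse as a block. miR-99b had log2 ratios of 8.06, 7.81, 7.72 and 7.70 in ECs and 6.69 to 7.39 in the other 12 libraries, a difference of 0.75 ± 0.10 without overlap (limma adjusted p = 0.000579). miR-340 went the other way, at 2.52, 2.24, 2.62 and 2.30 in ECs and 2.85 to 4.17 elsewhere (-1.12 ± 0.17, limma adjusted p = 0.000587). miR-339, whose 5p arm was lowest in ECs, also had less 5p relative to 3p there, at -1.72, -1.85, -1.66 and -1.67 against -1.52 to -0.46 (-0.75 ± 0.13). The log2 ratio of miR-361 differed by 0.77 ± 0.15, that of miR-30b by -0.43 ± 0.087 and that of miR-30e by -0.38 ± 0.085.
The remaining shifts rest on few counts of the minor arm. miR-146a-3p had 0 to 2 counts in an EC library and miR-199b-5p 0 to 4, while miR-150-3p had 59 to 86 in ECs and none in any PT or PDGFR-β+ library, and miR-671-5p had 2 to 25 in any of the 16 libraries. With both arms required to reach 10 counts in every library, 3 of 29 hairpins were shifted toward 5p (miR-99b, miR-361 and miR-664) and 3 toward 3p (miR-339, miR-340 and miR-30e). For miR-126a, in the same test, the difference was 0.14 ± 0.12 and was not called.

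Loci were also summed by seed, since miRNAs with a shared seed have overlapping targets. This table was scaled on its own. Of 324 seed families, 120 (37%) were higher in ECs than the mean and 40 (12.3%) lower, and among the 65 families with more than 1 mature miRNA 30 were higher and 12 lower. The seeds named here were picked for the abundance of their members, with their values known. The families of UCACAGU (miR-27a and miR-27b) and UCCCUUU (miR-204 and miR-211) were higher by 2.62 ± 0.10 and 4.56 ± 0.20 on the log2 scale. ACCCUGU (miR-10a and miR-10b) was higher by 1.98 ± 0.10, GUAAACA (miR-30a, miR-30c and miR-30e) by 1.32 ± 0.10, GAGGUAG (let-7) by 0.89 ± 0.079 and ACAUUCA (miR-181) by 0.84 ± 0.088. The 370 loci without a RefSeq match had no seed here and were left out of these sums. Among them was miR-30d-5p, at 0.949% of the EC counts and 2.46% of the Mac counts, so 1.32 is not the value of the whole miR-30 family. In the same table AAAGUGC, the seed of miR-17, miR-20, miR-93 and miR-106, fell below the mean, at -0.60 ± 0.11, as did UGACCUA (miR-192 and miR-215) at -1.45 ± 0.13 and GGCAGUG (miR-34 and miR-449) at -1.65 ± 0.17. The family of a seed mostly follows its most abundant member: in UCACAGU the leading locus carried 94.9% of the counts and in ACCCUGU 58.9%.

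The sham contrast was then computed in the other conditions, with libraries of other mice: at 2 and 7 days of obstruction (UUO-2 and UUO-7) and after its reversal (R-UUO). Of the 145 loci higher in sham ECs, 112 of 134 tested were also called higher at UUO-2 (83.6%), 100 of 139 at UUO-7 (71.9%) and 102 of 134 at R-UUO (76.1%), where 24.8%, 21.5% and 24.6% of all loci were higher. An opposite call was made for none at UUO-2, for 1 at UUO-7 and for 2 at R-UUO. In sham 31 of the 145 passed the count filter only with the EC libraries included, and the filter of each condition again included its ECs. The shares called again were not computed without these loci. Of the 76 lower loci, 66, 58 and 58 were called lower again, where 26.9%, 33.8% and 29.9% of all loci were lower. The difference of the contrast from sham was itself called for 0 larger and 9 smaller of 671 loci at UUO-2 (0% and 1.34%), 9 and 76 at UUO-7 (1.34% and 11.3%) and 12 and 64 at R-UUO (1.79% and 9.54%). The 9 smaller at UUO-2 became 16, 3, 2 and 1 without sham mouse 1, 2, 3 and 4, and 1 without the mouse as a block. The 9 larger at UUO-7 became 4 without sham mouse 2, and at R-UUO the 143 loci lower in ECs became 89 without mouse 2 of that group.
miR-126a-5p remained far above the other cells, with log2 differences of 6.61 ± 0.17, 7.54 ± 0.21 and 7.23 ± 0.33 in that order of conditions, and none of these differed from sham by the thresholds. The change from sham was 0.71 ± 0.43 at UUO-7 and 0.31 ± 0.43 at R-UUO. miR-126a-3p gave 6.36 ± 0.19, 7.42 ± 0.20 and 7.11 ± 0.29.
miR-139-5p was higher in ECs in every condition, but its lead changed from sham by -1.68 ± 0.41 on the log2 scale at UUO-7 and by -2.53 ± 0.41 at R-UUO (edgeR adjusted p = 0.00278 and 1.37e-05), which left 5.53 ± 0.16 and 4.77 ± 0.25. The lead of miR-204-5p also shrank. Its contrast changed from sham by -1.15 ± 0.31 at UUO-2, -2.56 ± 0.32 at UUO-7 and -3.60 ± 0.33 at R-UUO (edgeR adjusted p = 0.0486, 2.28e-07 and 4.14e-11). This left 3.02 ± 0.12, 1.63 ± 0.12 and 0.66 ± 0.28, the last of which was not called (edgeR adjusted p = 0.054). miR-150-5p stayed higher in ECs in every condition, at 4.77 ± 0.28, 4.45 ± 0.12 and 5.53 ± 0.33, with changes from sham of -1.47 ± 0.41, -1.86 ± 0.41 and -0.88 ± 0.41 (edgeR adjusted p = 0.0486, 0.00102 and 0.157, the last not called). Of all 82 named loci, 29 had a contrast that changed from sham in at least 1 condition.
The 9 Dlk1-Dio3 loci that passed the filter in sham without the EC libraries were all higher in ECs than the mean at UUO-2, at UUO-7 and at R-UUO. Their log2 differences were 3.54 to 5.69, 1.14 to 2.46 and 3.63 to 4.46, and the contrast was called smaller than in sham for none, 9 and none. For miR-127-3p the change at R-UUO was -2.23 ± 0.85 without a call (edgeR adjusted p = 0.082). PDGFR-β+ cells were nearer than the mean. At UUO-2, 13 loci of the region passed the filter without the EC libraries, and 7 were higher than PDGFR-β+ cells (median 1.30). At R-UUO none of 13 such loci was called against PDGFR-β+ cells (median 0.85). At UUO-7 the order of the populations was another: miR-127-3p stood at 750 to 2322 CPM in ECs, above Macs (28.9 to 554 CPM) and PT cells (27.8 to 209.5 CPM) but below PDGFR-β+ cells, at 3035 to 7339 CPM (log2 difference -2.30 ± 0.59 from these, edgeR adjusted p = 0.00409). All 9 were lower in ECs than in PDGFR-β+ cells at UUO-7, where 32.1% of all loci were lower and 18% higher. miR-3071-5p, for one, changed by -4.74 ± 1.15 from sham at UUO-7 (edgeR adjusted p = 0.00292), and miR-300-3p by -4.55 ± 1.39. At UUO-7 the PDGFR-β+ group had 3 libraries, 1 fewer than the other groups, and 11.3% of all loci had a smaller EC contrast than in sham.
Among the lower loci, miR-146b-5p stood further below the other cells than in sham, the contrast changing by -1.40 ± 0.21 at UUO-7 and -1.25 ± 0.21 at R-UUO (edgeR adjusted p = 2.66e-06 and 1.71e-05). miR-339-5p and miR-455-5p moved nearer to them at R-UUO, by 1.30 ± 0.32 and 1.07 ± 0.34 (edgeR adjusted p = 0.00433 and 0.0308).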

How the data were processed

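Small RNA was sequenced from sorted kidney cells, and the authors deposited 1 table of read counts per miRNA locus for 63 libraries. Per the study's methods and the submitters' processing notes, adapters were removed with Trim Galore 0.4.1 and Cutadapt 1.1, and reads were aligned with Bowtie through ShortStack to GRCm38 and counted at miRBase loci. How reads that fit several loci or either strand were assigned is not given in the sources used here, so loci with identical sequence and loci on opposite strands share reads.
The counts were used as deposited. Groups and mouse numbers came from the labels. The 16 sham libraries were normalized by TMM, loci were filtered with filterByExpr by population (478 of 2110 kept), and edgeR 4.0.16 (R 4.3.3) quasi-likelihood tests were run with the mouse as a block and Benjamini-Hochberg adjustment over all loci tested. ECs were compared with the mean of the other 3 populations and with each. A call required an adjusted p below 0.05 and a fold change above 1.5, the thresholds of the study's methods. The same fit was run per condition, and the difference of contrasts between conditions was tested in 1 fit of the 63 libraries. Arm ratios were tested with limma 3.58.1, and seed families were summed by RefSeq seed (1740 of 2110 loci matched). The locus fits, the difference of contrasts between conditions and the arm-ratio test were tried on simulated data, while the seed sums, lists and clusters were not.
The mouse numbers pair the libraries by the titles. Deviations from the population means correlated with a median r of 0.090 between libraries of the same mouse (24 pairs, -0.15 to 0.34) and -0.030 between those of different mice (72 pairs), described over all loci.
Loci named in the text were the miR-126a markers, the 10 largest differences in each direction among calls without overlap of libraries and with a mean count of at least 50, the 10 most abundant in ECs, the 3 largest in each direction against each population, and the 4 most abundant of each list, unless said otherwise. The members and lists were chosen with earlier results of these data known. Counts over loci that passed the filter without the EC libraries were added after the data were seen. Alternatives were library size alone, DESeq2 1.42.0, median-of-ratios factors, no count filter, summing by mature name, dropping overlapping loci, thinning to the smallest library, no mouse block, all libraries in the fit, and leaving out each mouse.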

Additional observations from a re-analysis of the deposited data

Results flagged for a closer look

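In a group of 4 sham libraries, the highest or lowest library was set apart where its gap to the nearest other was, as a share of the group's range, above Dixon's critical value for 95%. This picked 33 of the 328 groups of named loci examined (10.06%), where normal values would give about 1 in 20, and the groups share libraries. A group whose other 3 libraries were at 0 is always picked, so the share cannot be read as an excess over that rate. The Mac library of mouse 4 was the highest Mac library for miR-3071-5p at 2.72 CPM against 0 to 0.298, miR-300-3p at 2.40 CPM against 0.209 to 0.398, miR-127-3p at 58.1 CPM against 1.71 to 9.55, miR-192-5p at 4621 CPM against 3239 to 3264 and miR-541-5p at 14.3 CPM against 0 to 1.71. All but the tubule marker miR-192-5p of these belong to the Dlk1-Dio3 region. The highest of the 4 EC libraries stood apart for miR-455-5p at 3.82 CPM against 2.37 to 2.52 in mouse 3, miR-26a-5p from chromosome 10 at 65025 CPM against 54049 to 55655 in mouse 3, miR-27a-3p at 4910.3 CPM against 4073 to 4191 in mouse 3, miR-181b-5p from chromosome 2 at 1635 CPM against 1575 to 1584 in mouse 2, miR-30e-5p at 8609 CPM against 5991 to 6221 in mouse 3 and miR-429-3p at 312 CPM against 178 to 179.9 in mouse 3. The lowest of the 4 EC libraries stood apart for miR-1941-5p at 15.4 CPM against 25.7 to 26.3 in mouse 3 and miR-23b-3p at 2877 CPM against 3084 to 3121 in mouse 3. The highest of the 4 Mac libraries stood apart for miR-200b-3p at 240.4 CPM against 192 to 197 in mouse 1. The lowest of the 4 Mac libraries stood apart for miR-146b-5p at 1394 CPM against 1953 to 2066 in mouse 1, miR-22-3p at 24851 CPM against 26126 to 26265 in mouse 1 and let-7i-5p at 6451 CPM against 7513 to 7671 in mouse 2. The highest of the 4 PT cell libraries stood apart for miR-23a-3p at 80.9 CPM against 44.7 to 50.7 in mouse 1 and miR-99b-5p at 3346 CPM against 2700.1 to 2781 in mouse 1. The lowest of the 4 PT cell libraries stood apart for miR-192-5p at 100588 CPM against 124349 to 126820.0 in mouse 1. The highest of the 4 PDGFR-β+ cell libraries stood apart for miR-486a-3p at 177 CPM against 50.9 to 58.1 in mouse 2 and miR-486a-5p at 157 CPM against 44.7 to 53.9 in mouse 2. The lowest of the 4 PDGFR-β+ cell libraries stood apart for miR-22-3p at 40728 CPM against 47834 to 48810.0 in mouse 3 and let-7i-5p at 9274 CPM against 11969 to 12147 in mouse 3. In the following the other 3 libraries were at 0: 0.160 CPM of miR-3071-3p in Macs (mouse 4), 0.932 CPM of miR-673-5p in PT cells (mouse 4), 0.198 CPM of miR-223-5p in ECs (mouse 4), 1.15 CPM of miR-223-5p in PT cells (mouse 2), 1.50 CPM of miR-223-5p in PDGFR-β+ cells (mouse 2), 0.163 CPM of miR-5107-3p in ECs (mouse 2), 2.30 CPM of miR-5107-3p in PT cells (mouse 2), 0.369 CPM of miR-139-3p in PDGFR-β+ cells (mouse 1) and 0.932 CPM of miR-1941-5p in PT cells (mouse 4).
The difference of ECs from the mean of the other cells itself changed between conditions for 29 of the 82 named loci. From sham to UUO-2 the log2 difference changed by -1.47 for miR-150-5p, -1.15 for miR-204-5p and -0.71 for miR-27b-3p (edgeR adjusted p from 0.0418 to 0.0486). From sham to UUO-7 the log2 difference changed by -4.74 for miR-3071-5p, -4.67 for miR-3071-3p, -4.55 for miR-300-3p, -4.26 for miR-139-3p, -4.13 for miR-541-5p, -4.12 for miR-673-5p, -3.65 for miR-127-3p, -3.57 for miR-434-3p, -3.05 for miR-411-5p, -2.56 for miR-204-5p, -2.28 for miR-199a-3p from chromosome 1, -1.86 for miR-150-5p, -1.68 for miR-139-5p, -1.40 for miR-146b-5p, -0.89 for miR-181c-5p, -0.78 for miR-23b-3p and -0.72 for let-7i-5p, and by 0.73 for miR-99a-5p, 0.95 for miR-339-5p, 0.96 for miR-15a-5p, 1.096 for miR-29c-3p and 1.36 for miR-142a-5p (edgeR adjusted p from 4.71e-08 to 0.0439). From sham to R-UUO the log2 difference changed by -3.60 for miR-204-5p, -2.53 for miR-139-5p, -2.46 for miR-199a-3p from chromosome 1, -1.45 for miR-181c-5p, -1.25 for miR-146b-5p, -1.08 for miR-23b-3p, -1.03 for miR-486a-3p, -0.94 for miR-486a-5p, -0.81 for miR-23a-3p, -0.77 for miR-501-3p and -0.66 for let-7c-5p from chromosome 16, and by 0.82 for miR-99a-5p, 0.95 for miR-15a-5p, 1.07 for miR-455-5p, 1.23 for miR-29c-3p, 1.30 for miR-339-5p and 1.30 for miR-142a-5p (edgeR adjusted p from 4.14e-11 to 0.0308). A negative value means that ECs moved down relative to the other cells, and for the low miR-3071, miR-300 and miR-673 loci and miR-139-3p the sham contrast rests on populations at 0.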

How the results depend on the processing

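Scaling by library size alone moved the most results. It gave 103 loci higher and 207 lower against the mean (145 and 76 with TMM), 110 and 233 against Macs, 233 lower against PT cells and 26 lower without overlap. It gave 250 lower at UUO-2, 61 higher and 308 lower at UUO-7, 65 higher and 259 lower at R-UUO, 4 and 7 larger differences from sham at UUO-7 and R-UUO, and 70 higher and 144 lower seed families. It reversed 11 of 82 named loci: miR-26a-5p from chromosome 10 (-0.0021), miR-181a-5p from chromosome 2 (-0.20), miR-145a-3p (-0.74), miR-143-3p (-0.67), miR-145a-5p (-0.045), miR-92a-3p (-0.25), let-7a-5p from chromosome 9 (-0.16), miR-196b-5p (-0.78), miR-29a-3p (-0.046), miR-30d-5p (-0.81) and miR-30c-5p from chromosome 1 (-0.033). Of the others it kept the call of 58. The median of all loci moved with it by -0.83.
Thinning every library to the smallest, which left 317 loci, gave 89, 119, 105 and 78 loci higher than the mean, Macs, PT cells and PDGFR-β+ cells, and 42 without overlap. With no count filter 112 were higher without overlap. DESeq2 gave 5 larger and 16 smaller differences from sham at UUO-2, 16 larger at UUO-7 and 65 lower seed families, and the cause was not tested. With 10 counts required of each arm, chosen after seeing the data, 3 hairpins were shifted toward 3p.
Without the mouse as a replicate block 143 loci were higher and 78 lower against the mean, 141 and 74 of them shared with the blocked fit. The smaller differences from sham at UUO-2 went from 9 to 1, and the block changed no other count by over 1.5 times and no call of a named locus.
Leaving out each mouse gave 125 to 149 loci higher and 71 to 80 lower against the mean, 74 to 85 and 7 to 9 without overlap, 169 to 185 and 107 to 118 against Macs, 142 to 172 and 128 to 133 against PT cells, and 110 to 120 and 68 to 76 against PDGFR-β+ cells. It gave 112 to 118 and 109 to 129 at UUO-2, 91 to 127 and 133 to 160 at UUO-7, and 108 to 119 and 89 to 131 at R-UUO. Larger and smaller differences from sham ranged from 0 to 0 and 1 to 16 at UUO-2, 4 to 6 and 58 to 71 at UUO-7, and 10 to 13 and 50 to 63 at R-UUO. Arm shifts ranged from 3 to 5 and 4 to 4, and seed families from 105 to 114 and 32 to 50. Depth limits PT cells most, where 3 counts stood for up to 3.46 CPM, so a locus at 0 there may lie below detection.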
